A study of Mus musculus with 33 samples.

Results

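The clustered protocadherin genes are the members of the Pcdha, Pcdhb and Pcdhg families that lie side by side on mouse chromosome 18. They were picked by a rule on the gene name, with earlier results of these data known. The rule takes every gene whose symbol starts with Pcdha, Pcdhb, Pcdhga, Pcdhgb or Pcdhgc followed by a digit or by the letter c of a C-type gene. This gave 58 of the 55487 genes in the deposited tables. RNA-seq of mouse embryonic stem cells (ESCs) was used in 33 libraries, 3 in each of 11 groups. The cells were mutant for the HP1 proteins, which bind methylated lysine 9 of histone H3 (H3K9), or for SETDB1, an enzyme that writes this mark. The question put to these genes was which of them differ in level when the reader or the writer of the mark is lost.

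The groups were wild-type ESCs in 2 sets, A and B (WT set A and WT set B), ESCs lacking 1 Hp1 gene (Hp1α Δ/Δ, also Hp1β Δ/Δ or Hp1γ Δ/Δ), ESCs lacking 2 of them (Hp1α/β Δ/Δ, then Hp1α/γ Δ/Δ, and lastly Hp1β/γ Δ/Δ), Hp1α/β/γ Δ/Δ cells (the Hp1 triple mutant), Setdb1 F/F ESCs, whose Setdb1 alleles are floxed, and Setdb1 Δ/Δ cells (Setdb1-null cells). All are labelled as C57BL/6. The single and double mutants are constitutive knockouts made with CRISPR/Cas9 from isolated clones. The triple mutant came from cells null for Hp1α and Hp1β with a floxed Hp1γ, and Cre recombinase was introduced 72 h before RNA was taken. The study gives a control vector as the control of that experiment, whereas the labels give the genotype of both control sets as wild type, and they do not say whether the Hp1α/β Δ/Δ libraries carried the floxed allele. All ESCs were grown on mouse embryonic fibroblast feeders, which were removed only by a short plating on gelatin. The study describes the 3 libraries of a group as biological replicates, and those of the Cre experiment as independent experiments, whereas the labels number them without saying which cultures they came from.

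Clustered protocadherins are adhesion proteins of the cadherin superfamily, and in neurons each cell displays its own combination of them, by which the branches of a cell recognise and avoid each other. In the alpha and gamma clusters each variable first exon has its own promoter and is spliced to constant exons that all genes of the cluster share, whereas each beta gene is a single exon. Most first exons are chosen by chance in a given neuron, through CTCF and cohesin, while the C-type genes are used more uniformly. In ESCs the clusters are largely silent, and DNA methylation, SMCHD1 and the SETDB1 pathway are known to take part in their silencing.

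The alpha cluster has 14 genes, 12 alternate genes (2 of them gene identifiers that share the symbol Pcdha11) and the C-type genes Pcdhac1 and Pcdhac2, between positions 36930184 and 37187661 of chromosome 18 in GRCm38 with GENCODE M21 gene models. The beta cluster has 22 genes between 37264938 and 37524479. The gamma cluster has 22 genes between 37661793 and 37841873, with 12 of the A type, 7 of the B type and the C-type genes Pcdhgc3, Pcdhgc4 and Pcdhgc5. All lie on the plus strand, and Pcdhgb8 is annotated as a polymorphic pseudogene. An alpha gene shares a median of 53.5% of its exonic bases with other members and a gamma A gene 44.8%, almost all in the constant exons. The counting program had to split reads from these exons, and 97.2% of the non-zero counts of alpha genes and 99.0% of those of gamma A genes are fractions, against 2.06% for beta genes. Values of single alpha and gamma genes are therefore uncertain, whereas those of beta genes rest on reads of their own exon.

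The libraries held 17330936 to 25743149 counts each (median 21522569). Levels are given as CPM, counts scaled to a common library size and for library composition (TMM) over the 33 libraries together. The targeted genes were checked first. Cbx5 (HP1α), Cbx1 (HP1β) and Cbx3 (HP1γ) were lower in every group labelled as lacking them, with 1 exception in size. In the Hp1 triple mutant Cbx5 stood at 278.4 to 286.6 CPM against 477.8 to 489.4 CPM in WT set A, a log2 fold change of -0.81 ± 0.02 (SE), which is short of the 2-fold threshold used here. Setdb1 was at 68.5 to 72.0 CPM in Setdb1-null cells and at 130.0 to 135.2 CPM in Setdb1 F/F ESCs (log2 fold change -0.93 ± 0.03), also short of 2-fold. Hp1α/γ Δ/Δ replicate 2 stood apart from the other libraries of its group, with a chi-square per gene of 109.7 and 102.9 against them, where these differed from each other by 2.45. The library is kept, and the counts of members called or detected in its group are also given without it.

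The summed level of the alpha cluster was 5.41, 4.99 and 3.51 CPM in the libraries of WT set A and 23.8, 18.8 and 23.5 CPM in those of the Hp1 triple mutant. The beta cluster was at 4.07, 3.60 and 5.24 CPM in WT set A and at 18.7, 23.5 and 18.3 CPM in the Hp1 triple mutant. The gamma cluster was at 96.0, 100.5 and 96.6 CPM and at 101.7, 98.2 and 103.9 CPM. The alpha and beta sums of the triple mutant lay above every control library, by 4.76-fold and 4.68-fold in the means, while the gamma sums overlapped. After loss of Setdb1, the beta sum was 6.76, 7.90 and 8.73 CPM against 1.89, 1.67 and 1.46 CPM in Setdb1 F/F ESCs, a 4.65-fold higher mean. The alpha sum was 2.72, 2.68 and 4.15 CPM against 1.34, 1.28 and 1.70 CPM, 2.21-fold higher, and the gamma sum was 154.3 to 158.6 CPM against 119.0 to 120.4 CPM, 1.31-fold higher. In both mutants every library was higher than every control for the alpha and beta clusters. Setdb1 F/F ESCs were low beside wild type, with a mean alpha sum of 1.44 CPM against 4.64 in WT set A and 4.57 in WT set B. The Setdb1-null alpha mean, 3.18 CPM, was thus still under both wild-type means. The mean beta sum was 1.68 CPM in Setdb1 F/F, 7.79 in Setdb1-null cells, and 4.30 and 4.28 in WT sets A and B. Since the sums add genes that share reads, they are described without a test. Scaling by total counts shifts all genes by 0.22 (log2) in the triple mutant and by 0.26 after Setdb1 loss, and it moves the gamma ratios to 1.21 and 1.56, so the gamma sum of the triple mutant is near that shift. In bulk RNA, more cells that express a gene and more RNA per cell cannot be told apart.

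**Figure D1:**
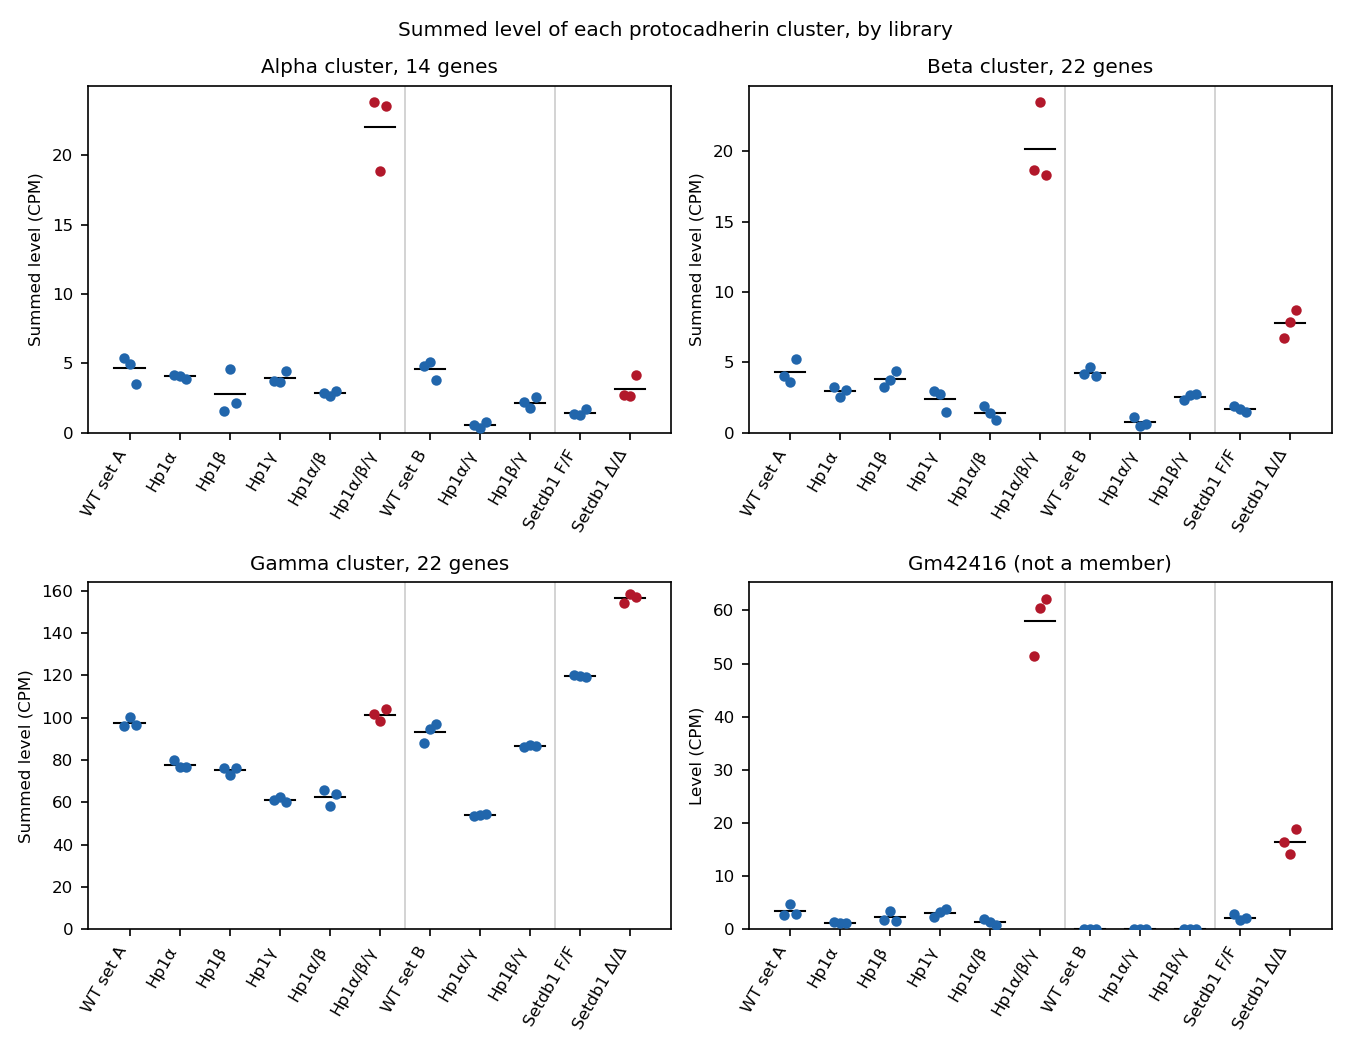
Summed level in CPM (vertical axes, from 0) of the 14 alpha, 22 beta and 22 gamma genes and of the overlapping gene Gm42416 in each library (points), with the group mean (line), for the 11 groups. Grey lines separate the groups by control set, and red marks the Hp1 triple mutant and Setdb1-null cells, which have the highest alpha or beta sums beside their own controls.

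More members were seen at all in these mutants, as were more genes of all kinds. Between 55 and 56 of the 58 had at least 1 count in a library of the Hp1 triple mutant, and between 51 and 54 in one of Setdb1-null cells, against 45 to 46 in WT set A and 42 to 43 in Setdb1 F/F ESCs. Only Pcdhb9 in the triple mutant and only Pcdhb12 after Setdb1 loss had no count in all 3 libraries of the group. At the other end, the libraries of Hp1α/γ Δ/Δ ESCs had counts for 34, 26 and 34 members, the low value being that of replicate 2. WT set B had 44 to 47. Of all genes, 16778 to 16903 had at least 10 counts over a pair of Hp1α/γ Δ/Δ libraries and 17333 to 17457 over a pair of WT set B libraries. In this group 19 members were at 0 in all 3 libraries, and 19 without replicate 2, among them 8 of the 12 alternate alpha genes. A count of 0 allows up to 3 counts, so these genes were not detectable at this depth.

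Single genes were tested against the control of their deposited table with edgeR's quasi-likelihood test over all genes, and were called at an adjusted p under 0.05 and more than 2-fold. Of the 58 members, 38 passed the filter on low counts in the comparison of the Hp1 triple mutant with WT set A. Of these, 15 were higher and 2 lower, where 25.1% of all genes tested were higher and 17.1% lower. The other 20 were not tested. Members that passed the filter through the mutant libraries alone had to differ, and 10 beta genes were tested here against 1 when Hp1α/β Δ/Δ ESCs were set against the same controls, so the counts describe the genes and are not evidence for a share. The higher members were 8 of the 10 beta genes tested, 4 of 5 alternate alpha genes, 3 of 12 gamma A genes, and none of the 7 gamma B or the 4 C-type genes tested. The median log2 fold change of the tested members was 0.46, against 0.04 for all genes tested.

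The beta genes were the most numerous of the higher members. Pcdhb6 (37333921-37337674) was at 1 count in each library of WT set A and at 62, 48 and 64 counts in those of the Hp1 triple mutant, or 0.0462, 0.0462 and 0.0481 against 2.77, 2.38 and 2.57 CPM. With 3 control counts in all, the ratio is 55.1 with an exact 95% counting interval of 18.6 to 269.9 (counting error only). Pcdhb6 was thus near the detection limit in every control library and well above it in every triple mutant library. Pcdhb14 (37447656-37456350) was at 0.139, 0.277 and 0.385 CPM in the controls and at 4.74, 5.07 and 4.37 CPM in the mutant, a log2 fold change of 4.09 ± 0.32 (SE, n = 3 per group). Pcdhb17 (37484795-37489454) was at 0.370, 0.739 and 0.673 CPM against 3.71, 5.22 and 3.01 CPM, a rise of 2.70 ± 0.32. For both genes every mutant library was far above the highest control library. Both genes and Pcdhb6 passed the filter only with the mutant libraries, so no p-value is given for them. Pcdhb7 had 2 counts over the control libraries and 70 over the mutant ones (ratio 33.3, 8.87 to 280.1). The remaining higher beta genes, Pcdhb8, Pcdhb4, Pcdhb18 and Pcdhb20, rose by 2.62, 2.21, 1.33 and 1.19 on the log2 scale. For Pcdhb18 the controls reach 0.555 CPM and the lowest mutant library is at 0.642 CPM.

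Of the alternate alpha genes, Pcdha6 (36967631-37187657) stood out in level. It was at 1.39, 1.48 and 1.25 CPM in WT set A and at 16.6, 12.9 and 16.6 CPM in the Hp1 triple mutant. The groups lie far apart, with a log2 fold change of 3.45 ± 0.17 (edgeR adjusted p = 3.3e-13). Pcdha6 held 69.7% of the counts of the alpha cluster in the triple mutant and 29.5% in WT set A, where Pcdhac2 held 34.6%. These shares leave out the overlapping gene Gm42416, described below, which had 1148, 1217 and 1549 counts in the triple mutant. Of its 2856 exonic bases, 2410 lie in Pcdha4. The lead of Pcdha6 within the cluster therefore depends on how those reads were assigned. Pcdha12 and Pcdha3 rose by 2.11 ± 0.47 and 1.67 ± 0.48, and Pcdha5 went from 2 counts over the controls to 48 over the mutant libraries (ratio 22.8, 5.98 to 193.7). The lowest Pcdha3 library of the mutant, at 0.671 CPM, was above the highest control library, at 0.416 CPM.

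In the gamma cluster the members moved in different directions. Pcdhga1, the first gene of the cluster (37661793-37841873), was at 3.56, 5.73 and 3.22 CPM in WT set A and at 16.3, 18.1 and 19.8 CPM in the Hp1 triple mutant, a rise of 2.08 ± 0.16 (edgeR adjusted p = 3.7e-10). Pcdhga7 rose by 1.30 ± 0.22 and Pcdhga3 by 1.10 ± 0.27. Pcdhga11 was at 9.25, 9.33 and 9.62 CPM in the controls and at 4.29, 3.97 and 4.05 CPM in the mutant, and fell by 1.22 on the log2 scale (SE 0.14, edgeR adjusted p = 1.2e-07). Both shifts separate all libraries, and they oppose each other within 1 cluster whose sum did not separate. Per kilobase of exon, Pcdhgc3 was the highest member in every group. In WT set A it was at 4.04 ± 0.38 CPM per kb (SD, n = 3), and in the triple mutant it was at 3.42 ± 0.25, close to Pcdhga1 at 3.37 ± 0.33 and Pcdha6 at 2.86 ± 0.40. The spreads of Pcdhgc3 and Pcdhga1 overlap in the triple mutant, whereas Pcdhga1 was 6th of the members in WT set A with 0.777 ± 0.254 CPM per kb.

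**Figure D2:**
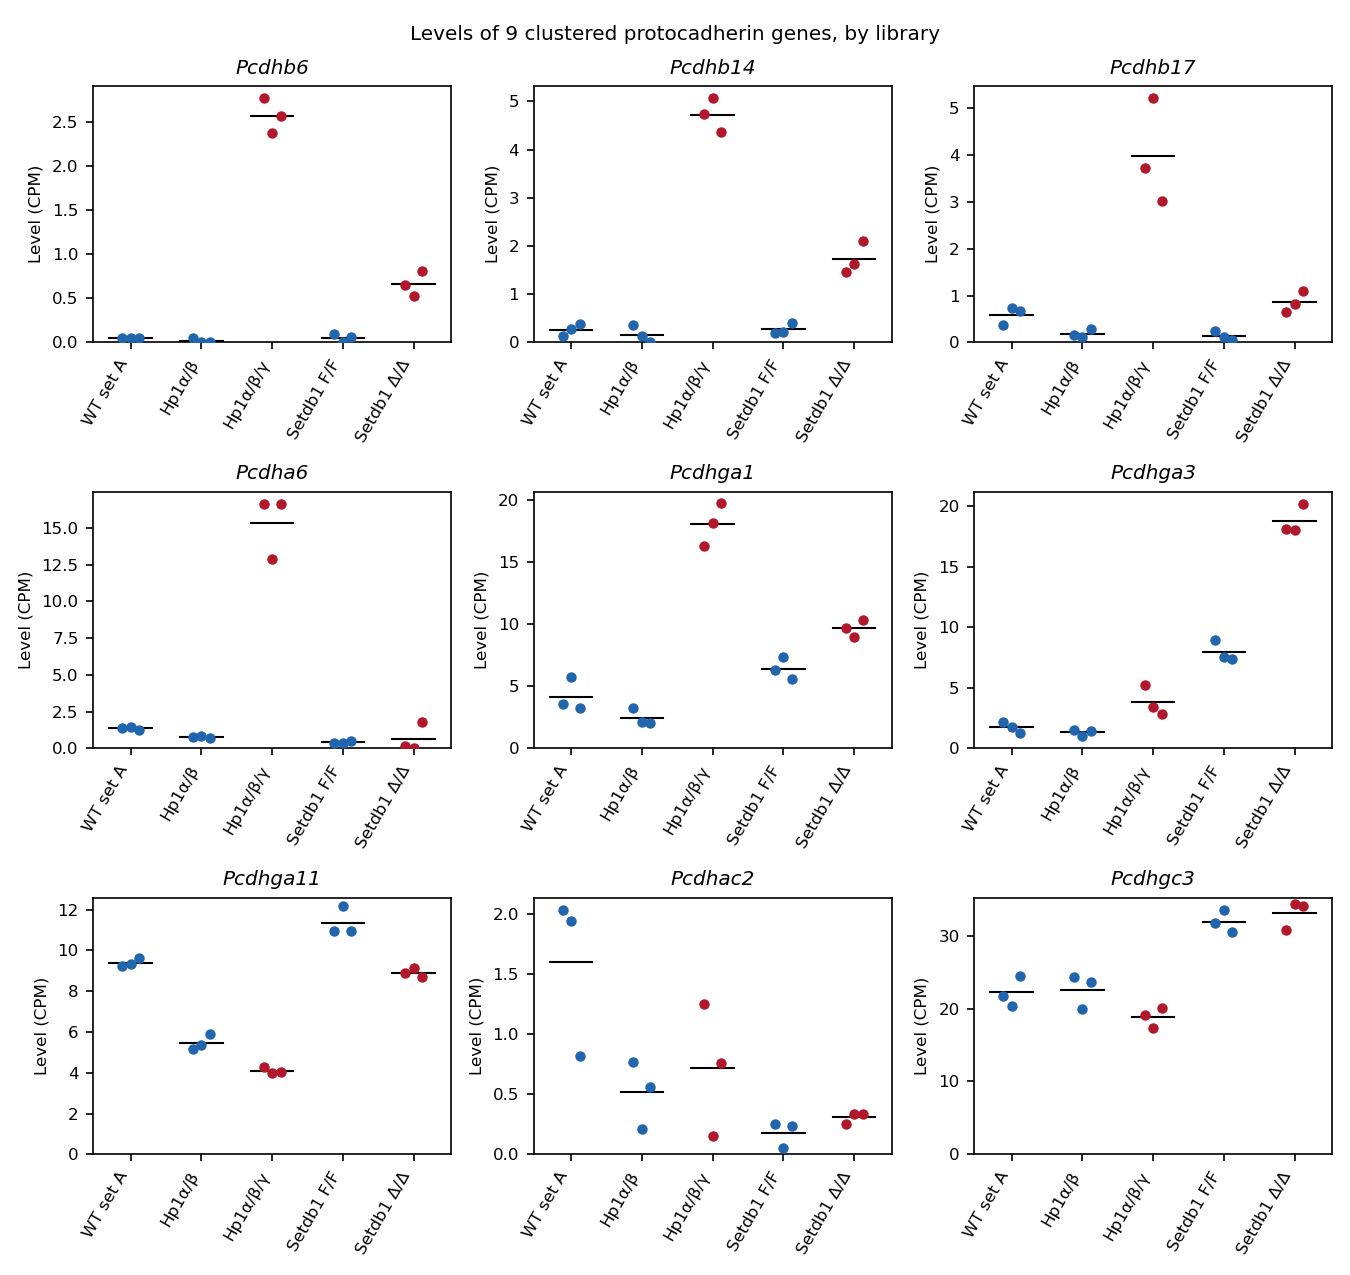
Level in CPM (vertical axes, each from 0) of 9 members in the libraries of 5 groups (points) with the group mean (line). Pcdhb6, Pcdhb14 and Pcdhb17 are above their own controls in both the Hp1 triple mutant and Setdb1-null cells, though Pcdhb17 in the latter overlaps WT set A, Pcdha6 and Pcdhga1 are highest in the Hp1 triple mutant, Pcdhga3 in Setdb1-null cells, and Pcdhga11 is lowest in the Hp1 triple mutant.

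The triple mutant was also set against Hp1α/β Δ/Δ ESCs, which still have Hp1γ and are not labelled as given Cre. The groups differ in the other Hp1 transcripts as well: Cbx1 was at 43.9 to 49.3 CPM in the triple mutant and at 94.7 to 98.2 CPM in the double mutant, and Cbx5 at 278.4 to 286.6 and 199.9 to 207.6 CPM. Here 37 members were tested, and 25 were higher and none lower, where 25.4% of all genes tested were higher and 16% lower. These are all 10 beta genes and all 4 alternate alpha genes tested, 6 of 12 gamma A genes and 5 of 7 gamma B genes. In the double mutant the 22 beta genes summed to only 0.940 to 1.90 CPM. Members that passed the filter through the triple mutant libraries alone had to differ, so these counts too are not evidence for a share. None of the 4 C-type genes tested was called, with log2 fold changes of 0.50 ± 0.60 for Pcdhac2, -0.29 ± 0.09 for Pcdhgc3, 0.04 ± 0.12 for Pcdhgc4 and -0.02 ± 0.28 for Pcdhgc5. Pcdha6 was at 0.772, 0.835 and 0.705 CPM in Hp1α/β Δ/Δ ESCs and rose by 4.27 ± 0.19 (edgeR adjusted p = 3.4e-12). Pcdhga1 was at 3.24, 2.09 and 2.07 CPM there and rose by 2.85 ± 0.16 (edgeR adjusted p = 6.9e-11). Pcdhb17 rose by 4.34 ± 0.39 and Pcdhb14 by 4.84 ± 0.44. Pcdhb6 had 1 count over the 3 Hp1α/β Δ/Δ libraries (ratio 166.9, with an interval of 29.6 to 6628), and Pcdhb7 had none, which makes it at least 7.46-fold higher against 3 counts in each library. Both comparisons share the triple mutant libraries. The sums were 7.76-fold higher for the alpha cluster, 14.2-fold for the beta cluster and 1.62-fold for the gamma cluster. The sums of the double mutant itself are given below.

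After loss of Setdb1, 26 members were tested against Setdb1 F/F ESCs, and 8 were higher and none lower, where 18.5% of all genes tested were higher and 11.4% lower. They are all 4 beta genes tested (Pcdhb6, Pcdhb14, Pcdhb17 and Pcdhb22), 3 of 12 gamma A genes (Pcdhga3, Pcdhga4 and Pcdhga6) and 1 of 7 gamma B genes (Pcdhgb1). None of the 12 alternate alpha genes reached the filter. The median log2 fold change of the tested members was 0.63, against 0.01 for all genes. Pcdhb6, Pcdhb14 and Pcdhb17 passed the filter through the Setdb1-null libraries alone and so had to differ, and no p-value is given for them. Pcdhb22, Pcdhga6 and Pcdhgb1 would not have passed on the Setdb1 F/F libraries either, which favours a rise among the genes tested. The counts and the median therefore describe the genes and are not evidence for a share. Pcdhb14 was at 0.199, 0.223 and 0.409 CPM in Setdb1 F/F ESCs and at 1.46, 1.63 and 2.099 CPM in Setdb1-null cells, a rise of 2.63 ± 0.36. Pcdhb17 was at 0.249, 0.112 and 0.0585 CPM against 0.656, 0.814 and 1.10 CPM, a rise of 2.51 ± 0.50. Pcdhb6 had 2, 0 and 1 counts against 13, 11 and 17, a ratio of 12.2 with an interval of 3.89 to 61.6. In each of these beta genes every Setdb1 Δ/Δ library was above every Setdb1 F/F library. Among genes that were too low for the test, Pcdhb16 had 1 count in each control library and 9, 14 and 12 counts after Setdb1 loss (ratio 10.4, 3.29 to 53.0).

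The gamma gene with the most marked rise in level after Setdb1 loss was Pcdhga3. It was at 8.96, 7.53 and 7.37 CPM in Setdb1 F/F ESCs and at 18.2, 18.04 and 20.2 CPM in Setdb1-null cells, a log2 fold change of 1.23 ± 0.09 (edgeR adjusted p = 1.4e-09). Per kilobase it moved from 4th to 2nd of the members, at 1.69 ± 0.19 and 3.98 ± 0.26 CPM per kb. Pcdhga4 was at 3.14, 3.07 and 3.63 CPM against 8.37, 5.79 and 6.53 CPM and rose by 1.06 ± 0.16, and Pcdhga6, at under 1.5 CPM throughout, rose by 1.53 ± 0.41. Pcdhgb1 and Pcdhb22 were close to the thresholds, with rises of 1.05 ± 0.44 and 1.03 ± 0.38 (edgeR adjusted p = 0.037 and 0.022), and the Pcdhgb1 libraries overlap, at 0.409 to 1.45 CPM and 0.908 to 3.15 CPM. Most other gamma genes had smaller estimates above 0, and without the fold threshold 19 members would be higher and 1, Pcdhga11, lower. The share of all genes without that threshold was not counted. The deposited TPM of Pcdhga6 was 79.0 to 253.3 in the tables with WT set B and 0 to 0.57 in the other tables, for counts of 22 to 98 and 0 to 30, so TPM is not used for any comparison.

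The changes after loss of the 3 Hp1 genes and of Setdb1 were then compared with each other in 1 model over the 12 libraries of the 4 groups, which share no control. Of 40 members tested, 4 had a larger change in the Hp1 triple mutant and 5 a smaller one, where 15.4% and 16.5% of all genes tested did. The 4 are Pcdha6, Pcdhga1, Pcdhb14 and Pcdhga2, with differences of 2.75 ± 0.90, 1.48 ± 0.22, 1.44 ± 0.58 and 1.27 ± 0.41 on the log2 scale. Pcdha6 rose in the triple mutant, while in Setdb1-null cells it was at 0.151, 0 and 1.76 CPM against 0.349, 0.391 and 0.468 CPM in Setdb1 F/F ESCs, so that 1 of the 3 libraries is above its controls and the others are below them. Pcdhga1 was at 9.73, 8.95 and 10.3 CPM after Setdb1 loss against 6.32, 7.37 and 5.56 CPM, a log2 fold change of 0.58 ± 0.12 that is above every control but under 2-fold. Pcdhb14 rose in both, and more in the triple mutant. The 5 are Pcdhb2, Pcdhga5, Pcdhga10, Pcdhgb6 and Pcdhgb5, with differences of -2.86, -1.62, -1.41, -1.14 and -1.03. None of these 5 was called in either comparison on its own, and Pcdhb2 was too low to be tested after Setdb1 loss. With Hp1α/β Δ/Δ ESCs in place of WT set A as the control, 10 members had a larger change in the triple mutant and none a smaller one, and 4 of the 9 were called again, namely Pcdha6, Pcdhb14, Pcdhga1 and Pcdhga2. The share of all genes was not counted with this control, so the 10 cannot be set against it. For Pcdhb6 and Pcdhb17 the change did not differ beyond its error (2.09 ± 1.18 and 0.16 ± 0.92, edgeR adjusted p = 0.13 and 0.91), and standard errors of this size do not show that the changes were alike. With the double mutant as the control, Pcdhb6 was among the 10.

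**Figure D3:**
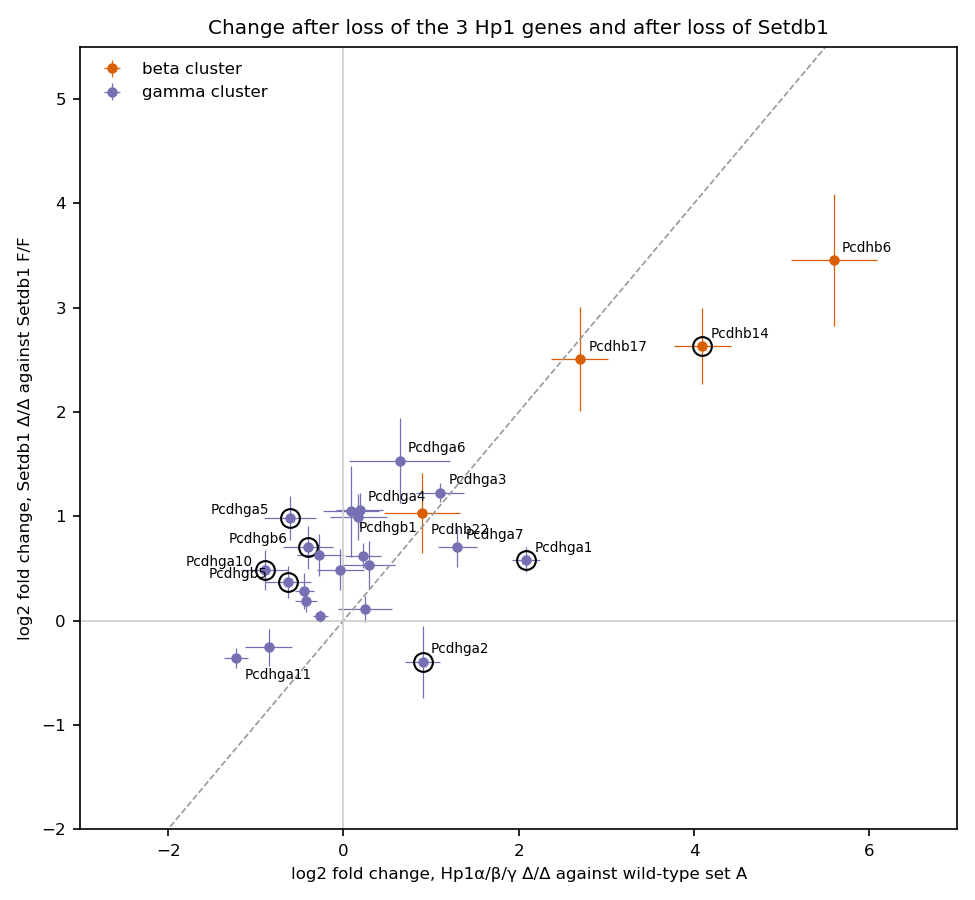
log2 fold change of the 26 members tested in both comparisons, 4 beta and 22 gamma genes, in the Hp1 triple mutant against WT set A (horizontal axis) and in Setdb1-null cells against Setdb1 F/F ESCs (vertical axis), with standard errors as bars and the line of equal change dashed. The 7 circled genes are those whose change differed in the test of the difference, and Pcdhb6, Pcdhb14 and Pcdhb17 lie high on both axes.

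In the single and double mutants the called members were nearly all lower. Members that passed the filter through the control libraries alone had to be lower. The counts of lower members in these mutants therefore describe the genes and are not evidence for a share. In Hp1α Δ/Δ ESCs 28 members were tested, none higher and 5 lower, beside 1.56% and 3.31% of all genes. In Hp1β Δ/Δ ESCs 26 were tested, 1 higher and 5 lower, beside 2.75% and 6.36%. In Hp1γ Δ/Δ ESCs 25 were tested, none higher and 9 lower, beside 2.04% and 3.55%. These 3 comparisons and that of Hp1α/β Δ/Δ ESCs share the libraries of WT set A, and most members that could be tested in them are gamma genes. The gamma sum was 76.6 to 80.0 CPM in Hp1α Δ/Δ, 72.7 to 76.4 CPM in Hp1β Δ/Δ and 60.4 to 62.4 CPM in Hp1γ Δ/Δ ESCs, each group below all control libraries (96.0 to 100.5 CPM).

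Pcdhgb1 and Pcdhgb5 were lower than WT set A in each of the 3 single mutants. Pcdhgb1 was at 2.08, 2.45 and 1.68 CPM in WT set A and at 0.406 to 1.21 CPM over the 9 single mutant libraries, so none overlapped, with log2 fold changes of -1.27 ± 0.32, -1.52 ± 0.40 and -1.30 ± 0.36 for loss of Hp1α, Hp1β and Hp1γ (edgeR adjusted p = 0.0027, 0.0083 and 0.0065). Pcdhgb5 was at 3.19, 5.22 and 3.08 CPM in the controls and fell by 1.21, 1.02 and 1.32. Against WT set B neither gene was called in any of the 3, with log2 fold changes of -0.73, -0.98 and -0.75 for Pcdhgb1 (edgeR adjusted p = 0.056, 0.051 and 0.096) and of -0.58, -0.39 and -0.68 for Pcdhgb5 (edgeR adjusted p = 0.13, 0.32 and 0.049). Pcdhga12 was at 12.02, 10.996 and 9.04 CPM in the controls, at 3.65, 4.06 and 5.16 CPM in Hp1β Δ/Δ and at 5.53, 5.37 and 3.94 CPM in Hp1γ Δ/Δ ESCs. It fell by 1.33 (SE 0.17, edgeR adjusted p = 5.6e-05) and by 1.11 (SE 0.15, edgeR adjusted p = 6.4e-06), and by 0.79 in Hp1α Δ/Δ ESCs, under the 2-fold threshold. Pcdhga4 was called in Hp1α Δ/Δ and Hp1γ Δ/Δ ESCs (-1.12 ± 0.29 and -1.57 ± 0.39). Pcdhgb4 was called in Hp1α Δ/Δ ESCs (-1.35 ± 0.38), and Pcdhga2, Pcdhga3, Pcdhga8, Pcdhgb2 and Pcdhgb8 in Hp1γ Δ/Δ ESCs, with log2 fold changes from -1.06 to -1.73. Of the beta genes, Pcdhb2 was at 0.925, 0.785 and 0.914 CPM in WT set A and fell by 1.37 (SE 0.46) in Hp1α Δ/Δ and by 1.30 (SE 0.40) in Hp1β Δ/Δ ESCs. Pcdhb17 was the only member called higher in a single mutant, at 1.46, 0.913 and 1.40 CPM in Hp1β Δ/Δ ESCs (1.05 ± 0.39). It passed the filter only with those libraries, so no p-value is given for it. Members too low for the test could not be called, and some had more and others fewer counts than the controls. In Hp1β Δ/Δ ESCs, Pcdha5 had 23 counts against 2 over the controls (ratio 11.9, 2.94 to 104.3). Pcdhb20 had 1 against 18 there (17.4-fold lower, 2.74 to 723.8). The Hp1α Δ/Δ count was 2 without replicate 1 of that group, 8 without its replicate 2, and 3 without replicate 2 or 3 of WT set A, and the Hp1β Δ/Δ count was 3 without its replicate 1. Against WT set B in place of set A, 2 members were called in Hp1α Δ/Δ ESCs, and none of the 5 was among them. In Hp1β Δ/Δ and Hp1γ Δ/Δ ESCs 7 and 9 were then called, with 3 of the 6 and 3 of the 9 among them. The shares of all genes called against WT set B in these mutants were not counted. Of 8 feeder fibroblast markers tested, 1 was higher and none lower after loss of Hp1α, the same numbers after loss of Hp1β, and 3 were higher and 1 lower in Hp1γ Δ/Δ ESCs, with summed levels of 74.7 to 80.9, 93.6 to 105.2 and 81.7 to 89.8 CPM against 79.4 to 87.6 CPM in WT set A (Lum at 0 in Hp1α Δ/Δ ESCs and the controls). Their part in the result was not tested.

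In Hp1α/β Δ/Δ ESCs 25 members were tested, none higher and 13 lower, beside 2.96% and 5.19% of all genes, and the median log2 fold change of the tested members was -1.003, against 0.00 for all genes. The 13 are 6 of 7 gamma B genes (all but Pcdhgb4), 5 of 12 gamma A genes (Pcdhga2, Pcdhga4, Pcdhga9, Pcdhga10 and Pcdhga12), Pcdhac2 and the only beta gene tested, Pcdhb2. Pcdhgb2 was at 3.01, 3.10 and 3.32 CPM in WT set A and at 0.978, 1.04 and 0.846 CPM here, and fell by 1.71 (SE 0.27, edgeR adjusted p = 5.0e-05). Pcdhga10 was at 2.54, 3.93 and 2.93 CPM against 1.13, 1.04 and 0.705 CPM and fell by 1.71 (SE 0.30). Pcdhga12 was at 4.79, 3.72 and 4.65 CPM and fell by 1.30 (SE 0.15, edgeR adjusted p = 1.5e-06). In these 3 genes the groups are well apart. The beta sum was 1.90, 1.42 and 0.940 CPM, 0.330 of the control mean, and the alpha sum 2.88, 2.63 and 3.01 CPM, 0.613 of it. Pcdhb2 fell by 2.44 (SE 0.67) with counts of 8, 0 and 2. It passed the filter through the control libraries alone and so had to be lower. Against WT set B 9 members were called, 6 of the 13 among them. Of these 9, Pcdha6 was higher (1.10 ± 0.42, edgeR adjusted p = 0.045), whereas against WT set A its log2 fold change was -0.83 ± 0.35 and it was not called. The share of all genes called against WT set B was not counted here. The feeder markers moved here too, with 3 of 8 tested higher and 1 lower and a sum of 114.8 to 126.0 CPM against 79.4 to 87.6 CPM, and their part in the result was not tested.

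Against WT set B, 26 members were tested in Hp1α/γ Δ/Δ ESCs, none higher and 14 lower, beside 6.75% and 16.3% of all genes. Some of the 14, such as Pcdhb18 and Pcdhgb6, passed the filter through the control libraries alone and had to be lower. The count is therefore not evidence for a share. The alpha sum was 0.536, 0.329 and 0.790 CPM against 4.81, 5.10 and 3.78 CPM in WT set B, 0.121 of the control mean, and the beta sum 1.12, 0.493 and 0.650 CPM against 4.18, 4.66 and 4.01 CPM, 0.176 of it. The gamma sum was 53.4 to 54.4 CPM against 88.0 to 97.0 CPM, 0.578 of it. The mean of each cluster was lower here than in any other group. Pcdhgb6 was at 2.31, 2.105 and 1.82 CPM in WT set B and at 0.341, 0.219 and 0.186 CPM in the mutant, and fell by 3.07 (SE 0.32). Pcdhgb1 fell by 3.80 (SE 0.57), and Pcdhb18 had 41 counts over the controls and 2 over the mutant libraries, 19.1-fold lower (4.97 to 163.3). Pcdhb17 fell by 2.32, Pcdhga10 by 2.31, Pcdhga9 by 2.07, Pcdhgb7 by 1.42 and Pcdhga11 by 1.11. Without Hp1α/γ Δ/Δ replicate 2 the count was 16. The feeder fibroblast markers moved with this result: 7 of 8 tested were lower, and their summed level over 10 genes was 30.7 to 37.5 CPM against 95.3 to 107.8 CPM in WT set B, with Postn at 0 in the mutant and Lum at 0 in the control. Of the 9 pluripotency markers 4 were higher and none lower (5820 to 8245 CPM summed, against 3507 to 3595 CPM). Of 10 neural markers tested 2 were higher and 3 lower, and the list summed to 652.7 to 927.0 CPM against 453.6 to 482.0 CPM. The part of these markers in the result was not tested.

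In Hp1β/γ Δ/Δ ESCs 26 members were tested, none higher and 4 lower, beside 7.32% and 4.54% of all genes. The 4 are Pcdhac2, Pcdhb18, Pcdhga9 and Pcdhgb6, with log2 fold changes of -1.74 ± 0.29, -1.58 ± 0.42, -1.41 ± 0.39 and -1.21 ± 0.30. The edgeR adjusted p was 0.00014 for Pcdhac2, 0.0071 for Pcdhga9 and 0.0036 for Pcdhgb6. Pcdhb18 passed the filter through the control libraries alone, so no p-value is given for it. Pcdhb18 was at 0.688, 0.672 and 0.547 CPM in WT set B and at 0.132, 0.218 and 0.271 CPM in the mutant, without overlap. The feeder markers summed to 181.0 to 188.2 CPM here, against 95.3 to 107.8 CPM, a rise carried by Tagln (105.2 to 110.9 CPM against 29.8 to 35.3 CPM). Of 8 tested, Tagln and Col5a1 were higher and none lower, but the median log2 fold change of the list was -0.44 and Col1a1, Col1a2 and Thy1 were below every control library. Their part in the result was not tested. DESeq2 called 7 members in this comparison.

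**Figure D4:**
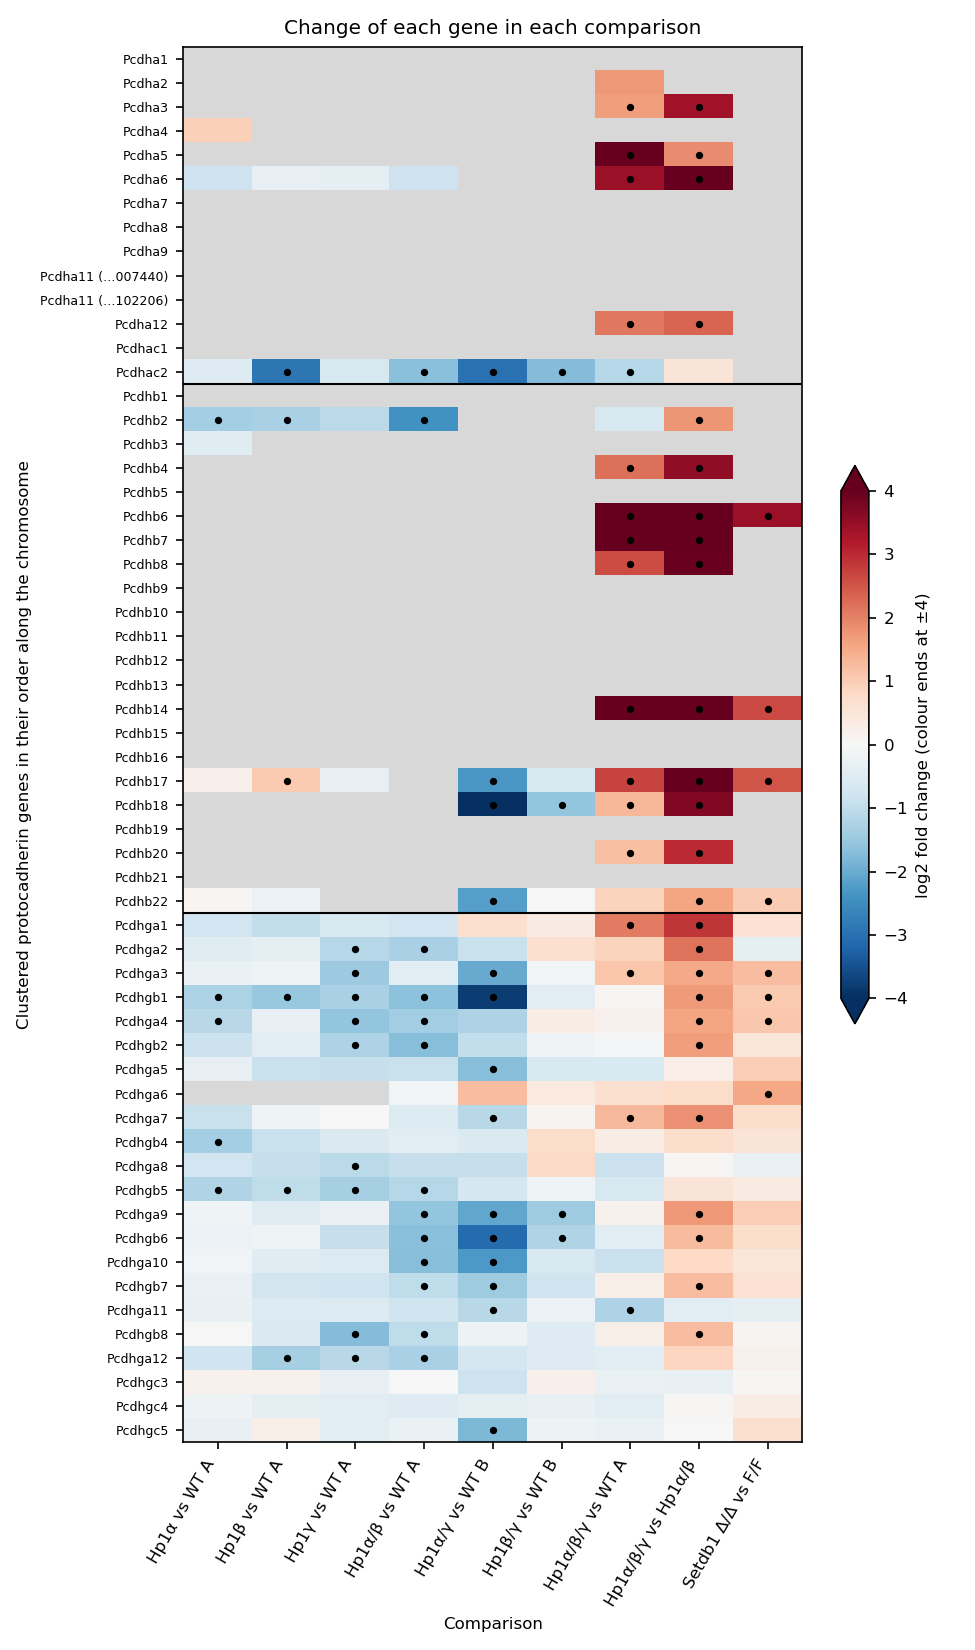
log2 fold change (colour, blue lower and red higher, ends at ±4) of each of the 58 members, in chromosomal order from alpha (top) through beta to gamma (bottom), in 9 comparisons (columns). Black points mark called genes and grey marks genes that were not tested, and the single and double mutants show blue in the gamma cluster, which holds most of the genes tested there, whereas the Hp1 triple mutant and Setdb1-null cells show red in the beta cluster.

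Of the 5 C-type genes, which are used more evenly than the others in neurons, Pcdhgc3 and Pcdhgc4 stayed under the thresholds in every comparison. Pcdhgc3 was at 21.7, 20.4 and 24.5 CPM in WT set A and at 19.1, 17.3 and 20.02 CPM in the Hp1 triple mutant (log2 fold change -0.26 ± 0.09), and its ranges in Setdb1 F/F and Setdb1-null cells overlap (0.04 ± 0.06). It was not called in any comparison. Pcdhgc4 was at 11.5, 13.4 and 11.4 CPM in WT set A and at 8.86, 9.19 and 9.11 CPM in the triple mutant, a log2 fold change of -0.45 ± 0.11, under the 2-fold threshold. Pcdhgc5 was called only in Hp1α/γ Δ/Δ ESCs, at 1.41, 0.493 and 1.95 CPM against 4.91, 4.25 and 4.10 CPM (-1.79 ± 0.42, edgeR adjusted p = 0.011). Pcdhac2, the C-type gene at the end of the alpha cluster, was called in more comparisons than the others. It was at 2.03, 1.94 and 0.818 CPM in WT set A and 2.26, 2.33 and 1.59 CPM in WT set B. It was lower in Hp1β Δ/Δ (0.521, 0.137 and 0 CPM, -2.90 ± 0.71), Hp1α/β Δ/Δ (-1.66 ± 0.47) and likewise in Hp1α/γ Δ/Δ (-2.98 ± 0.68), Hp1β/γ Δ/Δ and the Hp1 triple mutant (-1.15 ± 0.49, edgeR adjusted p = 0.039), and in the last the libraries overlap, at 0.149 to 1.25 CPM. Pcdhac1 was under 0.5 CPM in every library and was not tested.

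The control sets were compared to see how far cells with the same genotype label differ. Of 29 members tested, none was higher and 1 lower in WT set B, beside 2.55% and 3.12% of all genes. This was Pcdha6, at 0.197, 0.493 and 0.365 CPM against 1.39, 1.48 and 1.25 CPM in WT set A (-1.93 ± 0.38, edgeR adjusted p = 0.0014). Its level thus differed between the control sets, and all Pcdha6 counts of Hp1α/γ Δ/Δ libraries were 0. The tables also differ in how this locus was counted. The gene Gm42416 (36952741-37840200), which was chosen after its values were seen and is not a member, has 2856 exonic bases, all of them shared with members: 2410 lie in Pcdha4 and 446 in the constant gamma exons. It had no count in the 9 libraries of the tables with WT set B and had counts in each of the other 24.

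Gm42416 was at 2.77, 4.81 and 2.98 CPM in WT set A and at 51.4, 60.4 and 62.1 CPM in the Hp1 triple mutant (log2 fold change 4.01 ± 0.12, edgeR adjusted p = 3.5e-16). It was at 2.84, 1.67 and 2.05 CPM in Setdb1 F/F and at 16.4, 14.2 and 18.8 CPM in Setdb1-null cells (2.89 ± 0.16, edgeR adjusted p = 1.5e-11). All mutant libraries were above all of their controls. Whether its reads come from Pcdha4, from the gamma constant exons or from a joint transcript cannot be told apart in these counts. Added to the sums after the data were seen, it gives ratios of 9.81 for the alpha and 1.57 for the gamma cluster in the triple mutant, and of 5.42 and 1.42 after Setdb1 loss. The beta sums hold none of it.

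Other genes put the members in context, from lists of named genes that were chosen with earlier results of these data known. Of 16 neighbours of the clusters on the same chromosome, 15 were tested in both mutants. In the Hp1 triple mutant none was higher and 2 were lower, Dnd1 and Tmco6 (-1.37 ± 0.12 and -1.37 ± 0.08), and after Setdb1 loss 2 were higher, Cd14 (1.25 ± 0.40) and Arap3 (1.17 ± 0.16), and none lower. The median log2 fold change of the neighbours was -0.20 in the triple mutant and -0.15 after Setdb1 loss, smaller in size than the shifts of total-count scaling (0.22 and 0.26), under which both signs turn. Of 11 non-clustered protocadherins, which lie elsewhere and have promoters of their own, 10 were tested in the triple mutant, 8 higher and 1 (Pcdh18) lower, and 5 after Setdb1 loss, all higher. Pcdh8 had the highest estimate in both (5.29 ± 0.30 and 5.17 ± 0.23). Of 7 classical cadherins, 4 were higher and 1 lower in the triple mutant, and 1 of 5 tested was higher and 1 lower after Setdb1 loss. Of 10 genes for CTCF, cohesin and their partners, only Stag1 (1.39 ± 0.04) was called in the triple mutant and none after Setdb1 loss. Of 17 silencing factors, 2 were higher and 5 lower in the triple mutant. The called ones were Lrif1, Dnmt1, Atf7ip, Ehmt1, Rest, Dnmt3b (-1.69 ± 0.02) and Smchd1 (-1.03 ± 0.04). After Setdb1 loss 1 was higher and 2 lower, among Atf7ip, Suv39h2 and Ehmt2. In Hp1α/γ Δ/Δ ESCs none was higher and 5 were lower, namely Dnmt3b (-1.18 ± 0.13), Smchd1 (-1.25 ± 0.26), Suv39h1, Dnmt3a and Wiz. The part of these factors in the levels of the members was not tested.

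Markers of other cell types moved in part with the members. The summed level of the 10 feeder fibroblast markers was 58.1 to 59.8 CPM in the Hp1 triple mutant against 79.4 to 87.6 CPM in WT set A (3 of 8 tested lower, 1, Col3a1, higher; Lum at 0 in the controls), and 11.9 to 12.7 CPM against 13.7 to 14.6 CPM after Setdb1 loss, where Postn and Lum were at 0 in the controls. The higher alpha and beta sums thus stand beside lower feeder sums. The 12 neural markers summed to 258.0 to 267.2 CPM in the triple mutant against 482.2 to 497.2 CPM (3 of 11 tested higher, 5 lower), and to 124.9 to 129.7 CPM against 103.8 to 107.6 CPM after Setdb1 loss (4 of 10 higher, 1 lower; Dcx at 0 in both groups). The 9 pluripotency markers were lower in 6 and in 2 genes, and higher in none, and summed to 1442 to 1495 CPM against 3663 to 3707 CPM and to 4482 to 4534 CPM against 6420 to 6460 CPM. The part of these cell types in the levels of the members was not tested.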

How the data were processed

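RNA-seq of 33 mouse ESC libraries was analysed, 3 in each of 11 groups taken from the sample labels. The authors aligned the reads and estimated counts per gene, and the deposited tables hold these expected counts (fractional where reads were shared between genes) and TPM for each library. The submitters' processing notes name TopHat2 2.1.1, RSEM, edgeR and GRCm38.p5. The study's methods give a stranded total RNA kit and DESeq2, whereas the labels name a TruSeq RNA kit, so strand is uncertain. The 8 tables repeat some control columns, with identical values in all 30. Columns of the authors' own comparisons (fold changes and p-values) were not used.

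Expected counts were rounded. Each comparison was fitted over its own 6 libraries with edgeR 4.0.16 in R 4.3.3 (filterByExpr with a minimum count of 10, TMM, quasi-likelihood test), with Benjamini-Hochberg adjustment over all genes tested. A gene counted as called when its adjusted p was under 0.05 and it differed by more than 2-fold. The difference between the changes in the Hp1 triple mutant and in Setdb1-null cells was an interaction term over 12 libraries. Errors of fold changes are standard errors, and of levels the SD. Ratios on 1 to 3 control or mutant counts have exact 95% intervals, which cover counting error only, as PCR reads are not independent molecules. A group at 0 was set to 3 counts in each library. The test was checked on simulated counts. Libraries held 17330936 to 25743149 counts, so a gene near 1 count in each library cannot be told from one at 0.

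Named genes were the called members (beyond 10, the 5 highest in level and the 5 with the largest absolute change), the 2 members of each cluster with the highest mean TPM, the C-type genes and the targeted genes. Pcdha1, 2nd of the alpha cluster by mean TPM (1.72), is not described. Pcdhga6 ranked first in the gamma cluster (39.1) only through its TPM in the tables with WT set B. Further members are named as examples chosen after their values were seen. Positions and shared exon bases come from GENCODE M21 on GRCm38, in which all 58 members and 55141 of 55487 genes were matched. Members and gene lists were chosen with earlier results of these data known. Alternatives were RLE size factors, DESeq2 1.42.0, no filter, no fold threshold, other controls, a replicate block and leaving out each library. Python 3.11.15, pandas 2.3.3 and scipy 1.17.1 were used for the tables.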

Additional observations from a re-analysis of the deposited data

Results flagged for a closer look

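For 9 members the change differed between the Hp1 triple mutant and Setdb1-null cells in the test of the difference itself (edgeR's quasi-likelihood interaction term, 3 libraries in each of 4 groups). These are 4 and 5 of 40 members tested, while 15.4% and 16.5% of all genes tested differed in the same directions, and neither share of members was above that of all genes. The log2 change in the triple mutant minus that after Setdb1 loss was 2.75 for Pcdha6, 1.48 for Pcdhga1, 1.44 for Pcdhb14 and 1.27 for Pcdhga2. It was -2.86 for Pcdhb2, -1.62 for Pcdhga5, -1.41 for Pcdhga10, -1.14 for Pcdhgb6 and -1.03 for Pcdhgb5. The 5 negative differences were not called when the Hp1α/β Δ/Δ libraries were the control.

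Signal outside the members was seen for Gm42416, whose exons all lie within those of members. Its mean level was 58.0 CPM in the triple mutant and 16.5 CPM in Setdb1-null cells, above every library of their controls. Groups of 3 libraries are too small for a test of single outlying samples.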

How the results depend on the processing

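Called members were recounted under 63 settings that did not leave out a library, and 46 counts stayed within 1.5 times the reported one. The share of all genes was not counted in these recounts or in those without 1 library. Without a filter on low counts, 8 members were called in Hp1α Δ/Δ (reported 5), 10 in Hp1β Δ/Δ (6), 14 in Hp1γ Δ/Δ (9), 9 in Hp1β/γ Δ/Δ (4), 28 in the triple mutant (17), 16 after Setdb1 loss (8) and 4 between the wild-type sets (1). Without a fold threshold, the counts were 10, 10, 14 and 10 in Hp1α Δ/Δ, Hp1β Δ/Δ, Hp1γ Δ/Δ and, last, Hp1β/γ Δ/Δ ESCs, 20 after Setdb1 loss, 3 between the wild-type sets and 15 for the difference of changes. DESeq2 called 7 in Hp1β/γ Δ/Δ ESCs. With the other wild-type set as control, 2 were called in Hp1α Δ/Δ ESCs. The cause was not tested.

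Leaving out 1 library gave 2 to 8 members in Hp1α Δ/Δ, 3 to 8 in Hp1β Δ/Δ, 7 to 10 in Hp1γ Δ/Δ, 11 to 14 in Hp1α/β Δ/Δ, 12 to 16 in Hp1α/γ Δ/Δ ESCs, with 3 to 5 in the Hp1β/γ Δ/Δ group. It gave 16 to 22 in the triple mutant against WT set A, 24 to 28 against Hp1α/β Δ/Δ ESCs, 8 to 10 after Setdb1 loss, 8 to 12 for the difference of changes and 1 to 3 between the wild-type sets (3 without WT set B replicate 1, 2 without WT set A replicate 3).

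Libraries with the same replicate number did not deviate together (correlations of -0.036 to 0.035), so they share only a number. With a replicate block, 2 members were called between the wild-type sets, 15 in the triple mutant and 8 after Setdb1 loss. Depth limits the alpha and beta genes most, since many had under 10 counts in a control library, and shared exons limit single alpha and gamma genes at any depth.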
